A study of Mus musculus with 64 samples.

Results

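The 9 genes described here are the mouse globin genes and a pair of erythroid regulators, out of 34124 protein-coding and long non-coding genes on the autosomes and X. They are the alpha globin cluster (Hba-x, Hba-a1 and Hba-a2), the beta globin cluster (Hbb-bt, Hbb-bs, Hbb-bh1 and Hbb-y), Klf1 and Epor. They were named by symbol, with the contrast between the clusters, after their coverage in these libraries was known, so their coverage is given as a description without a test. The region of each gene was its body with 2 kb on each side (mm10), and its value in a library is the percent of that region covered by peaks.

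The cells were splenic CD23+ B cells, that is mature B cells selected by the surface protein CD23, from female F1 hybrids. All samples shared 1 genotype: the mothers were C57BL/6 mice heterozygous for an Xist deletion and the fathers were castaneus mice. The hybrids serve as a model of skewed X inactivation, which bears on the X chromosome and so on none of the 9 genes; no age is given. Cells were taken unstimulated (0 h) or after 12 or 24 h with 1 µM CpG, DNA that the innate receptor TLR9 recognises. CUT&RUN, in which an antibody guides a nuclease to its target so that nearby DNA is released and sequenced, was done for 4 histone marks and 2 Polycomb subunits. For H3K27me3 there were 3 unstimulated libraries, 3 at 12 h and 4 at 24 h, and for H2AK119Ub 4, 3 and 5. H3K9me3 had 4 at each time, and H3K27ac, Suz12 and Ring1B had 3 at each time, which makes 61 libraries. The sample titles of the H3K9me3 group read H3K29me3, which was taken to mean H3K9me3. The peaks are those of reads that the files label Cast, the castaneus allele. The labels call the replicates biological.

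Adult haemoglobin is assembled from alpha and beta chains, whose genes lie in separate clusters that red cell precursors activate together. Hba-x, Hbb-bh1 and Hbb-y are the embryonic members, Hba-a1 and Hba-a2 code for the adult alpha chain, and Hbb-bt and Hbb-bs code for the adult beta chain. Klf1 is a zinc finger factor that activates adult beta globin, and Epor is the receptor for erythropoietin, the hormone that keeps red cell precursors alive. Polycomb complexes hold genes silent: Ring1B belongs to the complex that places H2AK119Ub, and Suz12 to the one that places H3K27me3. H3K9me3 marks another kind of silent chromatin, and H3K27ac marks active promoters and enhancers. The human alpha globin genes are a known Polycomb target in cells that do not make haemoglobin.

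Promoters are printed for 5 members because the marks described below lay over some of them and not over others. They run from 250 bases before to 50 after the gene start, 5′ to 3′ on the gene's strand, with each CpG dinucleotide in capitals (RefSeq, GRCm38.p6, the assembly of mm10). Hba-x lies at chr11:32276350-32276649 on the plus strand, Hba-a1 at chr11:32283422-32283721 on the plus strand and Hbb-bs at chr7:103827879-103828178 on the minus strand. Klf1 lies at chr8:84901732-84902031 on the plus strand and Epor at chr9:21963527-21963826 on the minus strand.
Hba-x: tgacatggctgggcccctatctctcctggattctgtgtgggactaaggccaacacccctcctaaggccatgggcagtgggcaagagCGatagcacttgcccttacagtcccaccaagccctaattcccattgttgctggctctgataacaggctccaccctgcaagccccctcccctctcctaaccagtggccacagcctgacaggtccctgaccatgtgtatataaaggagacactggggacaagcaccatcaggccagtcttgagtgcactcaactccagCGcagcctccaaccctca
Hba-a1: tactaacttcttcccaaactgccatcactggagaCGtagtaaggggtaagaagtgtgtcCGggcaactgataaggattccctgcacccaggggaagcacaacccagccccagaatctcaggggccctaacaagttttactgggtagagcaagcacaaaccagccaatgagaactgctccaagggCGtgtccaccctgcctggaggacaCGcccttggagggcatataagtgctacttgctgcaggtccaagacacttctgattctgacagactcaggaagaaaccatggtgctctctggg
Hbb-bs: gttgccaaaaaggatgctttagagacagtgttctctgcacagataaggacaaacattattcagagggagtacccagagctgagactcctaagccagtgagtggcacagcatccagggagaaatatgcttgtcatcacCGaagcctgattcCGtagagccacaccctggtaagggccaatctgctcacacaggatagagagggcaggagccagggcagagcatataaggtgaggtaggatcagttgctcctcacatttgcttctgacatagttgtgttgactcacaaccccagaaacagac
Klf1: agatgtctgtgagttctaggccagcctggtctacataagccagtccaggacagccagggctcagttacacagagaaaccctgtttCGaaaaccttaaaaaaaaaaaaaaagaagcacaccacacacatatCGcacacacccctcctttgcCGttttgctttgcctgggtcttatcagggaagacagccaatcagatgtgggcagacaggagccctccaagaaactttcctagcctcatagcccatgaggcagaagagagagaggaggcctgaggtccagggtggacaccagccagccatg
Epor: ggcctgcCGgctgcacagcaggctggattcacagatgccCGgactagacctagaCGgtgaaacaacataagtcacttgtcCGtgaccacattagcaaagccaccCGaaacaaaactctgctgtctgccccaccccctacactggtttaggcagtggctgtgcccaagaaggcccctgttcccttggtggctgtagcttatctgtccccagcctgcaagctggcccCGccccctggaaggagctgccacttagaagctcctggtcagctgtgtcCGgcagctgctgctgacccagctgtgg
The first of these was wholly inside an H3K27me3 peak in all 7 stimulated libraries, and the Klf1 promoter was wholly inside an H2AK119Ub peak in all 8. The Hbb-bs promoter held no peak of either mark in any library.

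The table had a promoter for 8 of the 9 members, all but Hbb-bh1. Hbb-bt and Hbb-y had 1 CpG in their 300 bases, Hba-x and Hbb-bs 2, Klf1 3, Hba-a1 and Hba-a2 4, and Epor 7. The median of 32619 promoters was 7, with quartiles of 3 and 20. None of the 8 was therefore among the CpG-rich promoters, and the Hba-x and Hbb-bs promoters had the same CpG count while differing in H3K27me3. Among promoters with 2 to 4 CpG, 19.1% ± 3.39 (SD over 4 libraries) held an H3K27me3 peak at 24 h, against 12.3% ± 2.68 of those with 0 or 1 and 30.5% ± 2.78 of those with 10 to 19. The letters CACCC and GATAA, searched on both strands, were in all 8 members' promoters, and in 57.7% and 25.4% of all promoters. CCAAT was in 6 of the 8 (37.6% of all promoters), and TATAA was in the 5 of Hba-x, Hba-a1, Hba-a2, Hbb-bt and Hbb-bs (25% of all); GATAA and TATAA matches can overlap. The Hba-a1 and Hba-a2 promoters were identical over 297 bases, so reads from these copies cannot be told apart there. The Hbb-bt and Hbb-bs promoters were 56.2% identical.

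**Figure D1:**
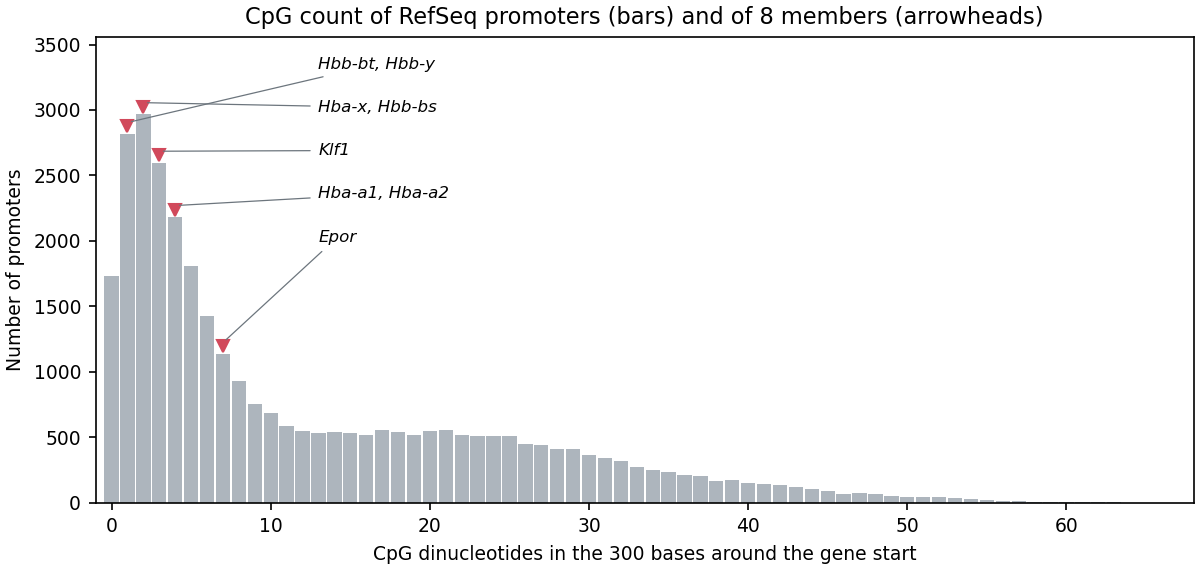
Number of RefSeq promoters (vertical axis) by the count of CpG dinucleotides in 300 bases around the gene start (horizontal axis), with the 8 matched members marked by arrowheads. The members lie at 1 to 7 CpG, at or below the median of 7.

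The peak lists of the 4 histone marks covered more of the genome after stimulation, and this touches their values below. The autosomal length covered by H3K27me3 peaks was 29.7 to 94.4 Mb at 0 h, 80.9 to 132 Mb at 12 h and 201 to 311 Mb at 24 h, and that of H2AK119Ub peaks was 27.7 to 58.5, 100.2 to 161 and 59.1 to 213 Mb. Suz12 and Ring1B peaks covered 48.9 to 74.8 and 56.4 to 101 Mb over all times, with no such growth. Their lists, unlike those of the histone marks, were called as a fixed top share of the signal, which limits how far this length can change. Read depth is not given, so a region without a peak is one whose signal stayed under that library's threshold. H3K27me3 replicate 3 at 0 h stood apart with 94.4 Mb, against 29.7 and 31.8 Mb in the other 2 libraries. The identity of the cells was read on H3K27ac: the 11 B cell markers averaged 79.2% ± 11 at 24 h (SD, n = 3), and the 6 T cell markers 7.22% ± 0.257. The 6 myeloid markers averaged 3.38% ± 2.96 and the 13 erythroid markers, the members among them, 0.163% ± 0.282. In such bulk samples, more cells with a mark and more of it in each cell cannot be told apart.

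**Figure D2:**
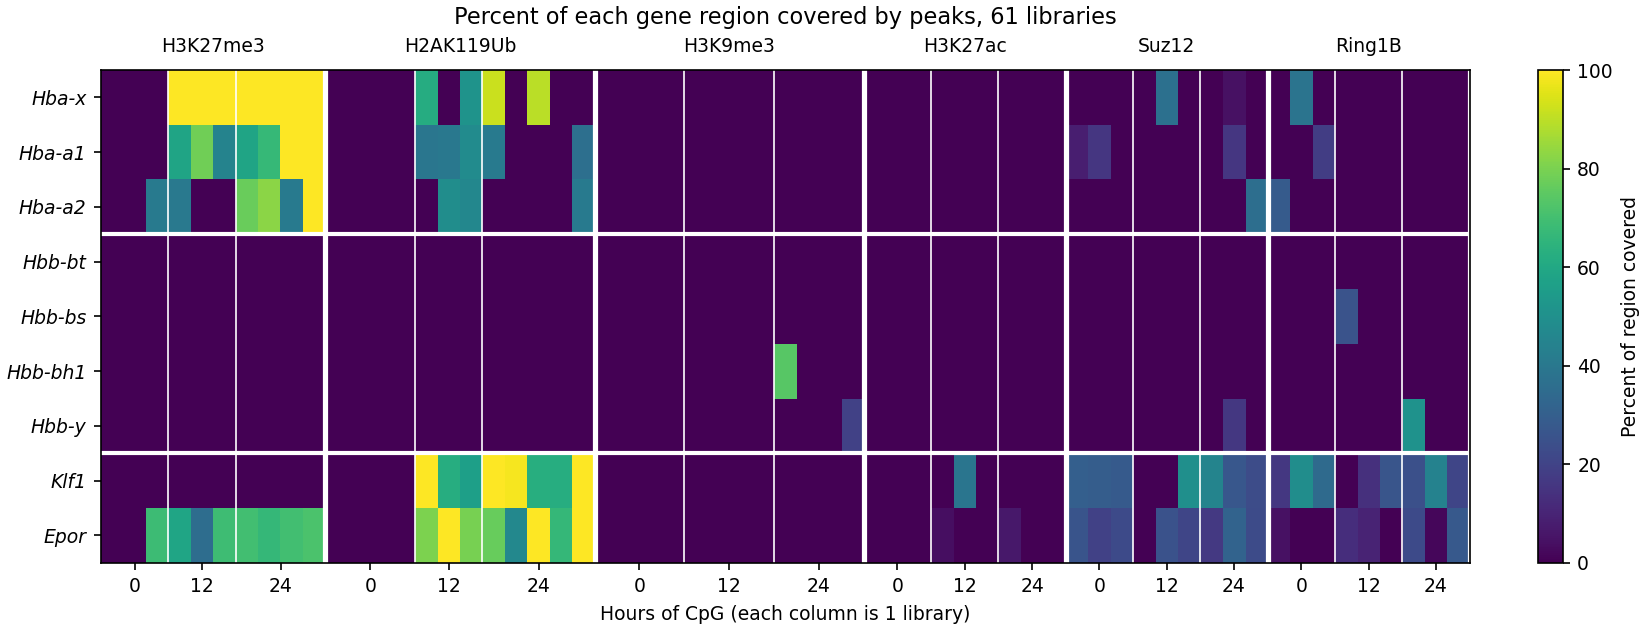
Percent of each member's region (rows) covered by peaks in each of the 61 libraries (columns, grouped by antibody and by hours of CpG); colour runs from 0 to 100%. The alpha genes, Klf1 and Epor carry marks after stimulation, while the 4 beta genes are at 0 for H3K27me3, H2AK119Ub and H3K27ac throughout.

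The alpha cluster had almost no H3K27me3 peak in unstimulated cells and was largely covered after CpG. Hba-x (chr11:32276600-32278116, plus strand) was at 0% in all 3 libraries at 0 h, and at 100% in all 3 at 12 h and all 4 at 24 h. The groups did not overlap. Of 32876 autosomal genes 1 (0.00304%), Hba-x itself, went from 0% in every 0 h library to 100% in every stimulated one. That pattern was worded from the values of Hba-x, so its rarity is a description and no support. Hba-a1 (chr11:32283672-32284486) was at 0% in all 3 libraries at 0 h, at 58.4, 78.3 and 44.6% at 12 h, and at 58.5, 67.1, 100 and 100% at 24 h. Every stimulated library was above every unstimulated one for Hba-a1, and the 2 stimulated times overlapped. No peak at 0 h and a peak in every stimulated library, as at Hba-x and Hba-a1, described 1.24% of autosomal genes. Hba-a2 (chr11:32296492-32297310) was at 0, 0 and 40.8% at 0 h, at 40.4, 0 and 0% at 12 h, and at 77.3, 82.8, 40.8 and 100% at 24 h. The 40.8% at 0 h came from replicate 3, the library with the longest covered length; without it all 3 alpha genes were at 0% at 0 h. Hba-a2 thus stood at 13.5% ± 23.3 (SD, n = 3) at 12 h and 75.2% ± 24.9 (n = 4) at 24 h, where Hba-a1 stood at 60.4% ± 16.9 and 81.4% ± 21.8.

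In each stimulated library 1 H3K27me3 peak spanned Hba-x, beginning 7.19 to 8.26 kb before its start. The stretch that every 12 h library covered was chr11:32269102-32282396, and at 24 h it was chr11:32269414-32282547. It began beyond the end of Nprl3, which lies 8.89 kb away. In replicate 4 at 24 h a single peak of 46563 bp held all 3 genes. In replicate 3 at 24 h a peak ran through Hba-a1 as well. In the other stimulated libraries coverage was incomplete or absent over the bodies of the 2 adult genes. At 24 h the body of Hba-a1 was covered to 60.9% ± 48.5 (SD, n = 4), against 98.8% ± 2.35 of the 2 kb after it. The body of Hba-a2 was covered to 40.5% ± 43.7, against 99.6% ± 0.875 of the 2 kb after it. At 12 h the body of Hba-a1 was at 9.65% ± 9.13 (n = 3) and that of Hba-a2 at 0%. These are the near-identical copies 12.8 kb apart, and whether reads that fit both copies were dropped was not tested.

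H2AK119Ub also appeared at the alpha genes after CpG, but in fewer libraries. All 3 genes were at 0% in all 4 libraries at 0 h. Hba-x was at 61.8, 0 and 51.4% at 12 h and at 91.8, 0, 89.7, 0 and 0% at 24 h. Hba-a1 was at 39.2, 40.1 and 48.2% at 12 h and at 40.9, 0, 0, 0 and 36.6% at 24 h. Hba-a2 was at 0, 49.0 and 46.2% at 12 h, and at 24 h only replicate 5 had a peak, with 41.0%. Each alpha gene was without the mark in at least 3 of 5 libraries at 24 h, and the cluster as a whole in replicates 2 and 4. Those 2 had 113 and 59.1 Mb covered genome-wide and the other 3 had 213, 112 and 163 Mb; the part of covered length in this was not tested. At 12 h the bases that all 3 libraries shared were chr11:32270834-32273729, ahead of Hba-x, and chr11:32284600-32288026, just after Hba-a1.

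**Figure D3:**
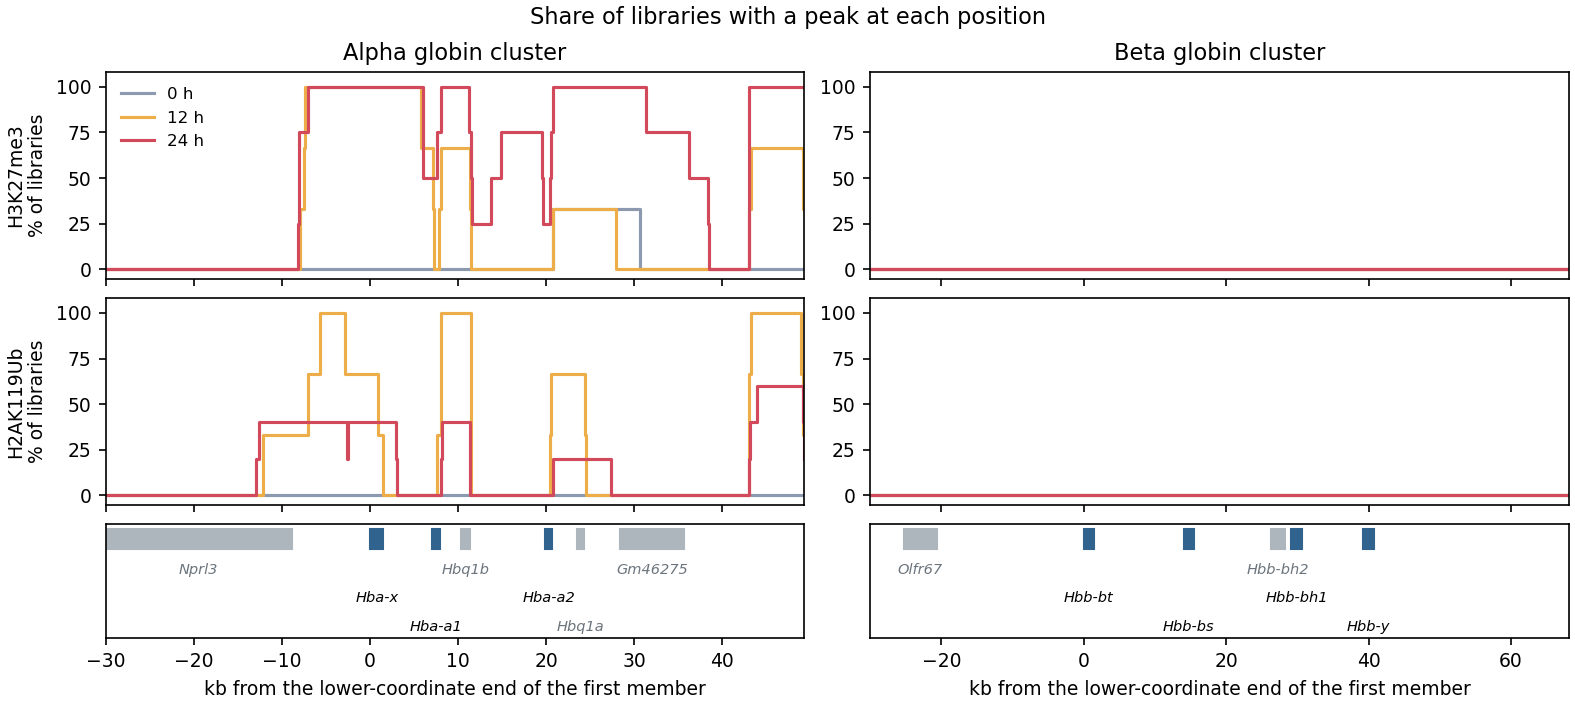
Share of libraries with an H3K27me3 (top) or H2AK119Ub (middle) peak at each position, in kb from the lower-coordinate end of the first member, with genes drawn below (blue, members; grey, others). Over the alpha cluster H3K27me3 reaches all libraries around Hba-x at 12 and 24 h and dips at the adult gene bodies; over the beta cluster all lines lie at 0.

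No beta globin gene had a peak of H3K27me3, H2AK119Ub or H3K27ac in any library. For H3K27me3 that is 0 of 10 libraries for each of Hbb-bt (chr7:103812524-103813923), Hbb-bs (chr7:103826523-103827928), Hbb-bh1 (chr7:103841638-103843162) and Hbb-y (chr7:103851754-103853207), and for H2AK119Ub 0 of 12. This is a frequent state: 28% of all autosomal genes, and 42.4% of those with regions as long as the members', had no peak of these 3 marks in any library. For H3K27me3 alone the shares were 56.4% and 65.1%. The few peaks on the beta genes were single ones. H3K9me3 covered 74.2% of Hbb-bh1 in replicate 1 at 24 h and 19.5% of Hbb-y in replicate 4, and neither gene had this mark in the other 11 libraries. Ring1B covered 25.5% of Hbb-bs in replicate 1 at 12 h and 51.1% of Hbb-y in replicate 1 at 24 h, and Suz12 covered 16.1% of Hbb-y in replicate 2 at 24 h. Hbb-bt had no peak in any of the 61 libraries, which held for 10.6% of autosomal genes and 21.5% of those of like length.

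The clusters differed most in H3K27me3 and, less evenly, in H2AK119Ub. The mean over the 3 alpha genes in H3K27me3 libraries was 0, 0 and 13.6% at 0 h, 66.3, 59.4 and 48.2% at 12 h, and 78.6, 83.3, 80.3 and 100% at 24 h. The mean over the 4 beta genes was 0% in all 10. The difference at 24 h was 85.5 ± 9.84 percentage points (SD, n = 4). For H2AK119Ub the alpha mean was 0% in the 4 libraries at 0 h, 33.6, 29.7 and 48.6% at 12 h, and 44.3, 0, 29.9, 0 and 25.9% at 24 h. The difference at 24 h was 20.0 ± 19.5 points (n = 5), hardly larger than its spread. For H3K27ac both clusters were at 0. The difference was -5.85 ± 8.76 points for H3K9me3 (n = 4), 4.94 ± 6.30 for Suz12 (n = 3) and -4.22 ± 7.31 for Ring1B (n = 3), each within 1 SD of 0. At 0 h the Ring1B difference was 9.46 ± 3.38 points (n = 3), with the alpha mean at 9.52, 12.8 and 6.04% and the beta mean at 0% in each library, and at 12 h it was -2.13 ± 3.68. At 0 h Ring1B was thus higher over the alpha genes in all 3 libraries, each through a different gene. When every Ring1B list was shortened to 18147 peaks by highest signal, only the Hba-a1 peak remained, and the alpha mean was 2.01% ± 3.49 (n = 3). The Suz12 difference was 2.69 ± 2.63 at 0 h and 4.11 ± 7.12 at 12 h.

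The H3K27me3 peak over Hba-x was long rather than high, and this bears on the difference. When every H3K27me3 list was shortened to the 2771 peaks of the shortest list by highest signal, no alpha gene kept a peak at any time, and the difference at 24 h became 0. When the lists were shortened by total signal instead, a choice made after seeing these values, Hba-x was still at 100% in all 3 libraries at 12 h, in 2 of 4 at 24 h and in none at 0 h. The difference at 24 h was then 41.7 ± 50.0 points. In the full lists the peak over Hba-x ranked in the top 3.62 to 17.8% of its list by total signal and in the top 12.3 to 48.5% by highest signal. Separate H3K27me3 peaks at Hba-a1 were shorter and ranked better by highest than by total signal. That of replicate 1 at 24 h, of 3527 bp, was in the top 16.5% by highest and the top 54.3% by total signal. For H2AK119Ub both ways of shortening, to 2100 peaks, gave a difference of 0, and stricter lists, without their weaker peaks, gave 2.44 ± 5.45 points.

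Peaks of the Polycomb subunits themselves lay over no globin gene in more than 4 of 18 libraries. A Suz12 or Ring1B peak touched Hba-x in 3 of 18 libraries, Hba-a1 in 4 and Hba-a2 in 3. At Hba-x these were Ring1B at 38.4% in replicate 2 at 0 h, and Suz12 at 37.0% in replicate 2 at 12 h and 4.68% in replicate 2 at 24 h. At Hba-a1 and Hba-a2 single libraries had 0.332 to 36.1%, in both unstimulated and stimulated cells. Of the alpha genes only Hba-x had such a peak in its gene body, in 2 libraries. The beta genes had such a peak in 0 libraries for Hbb-bt and Hbb-bh1, 1 for Hbb-bs and 2 for Hbb-y. Taken as whole intervals, the alpha cluster (24711 bp with 2 kb each side) had a peak of either in 9 of 18 libraries. The median autosomal tile of that length had one in 3, and 87.9% of tiles had no more than the alpha cluster. The beta cluster (44684 bp) had a peak in 5 of 18, the median tile of its length in 5, and 51.7% of tiles had no more. Whether the histone mark libraries held enough reads of the Cast allele in the beta cluster was not tested. The Suz12 and Ring1B lists keep a fixed top share of the signal, so their peaks rank regions within a library.

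**Figure D4:**
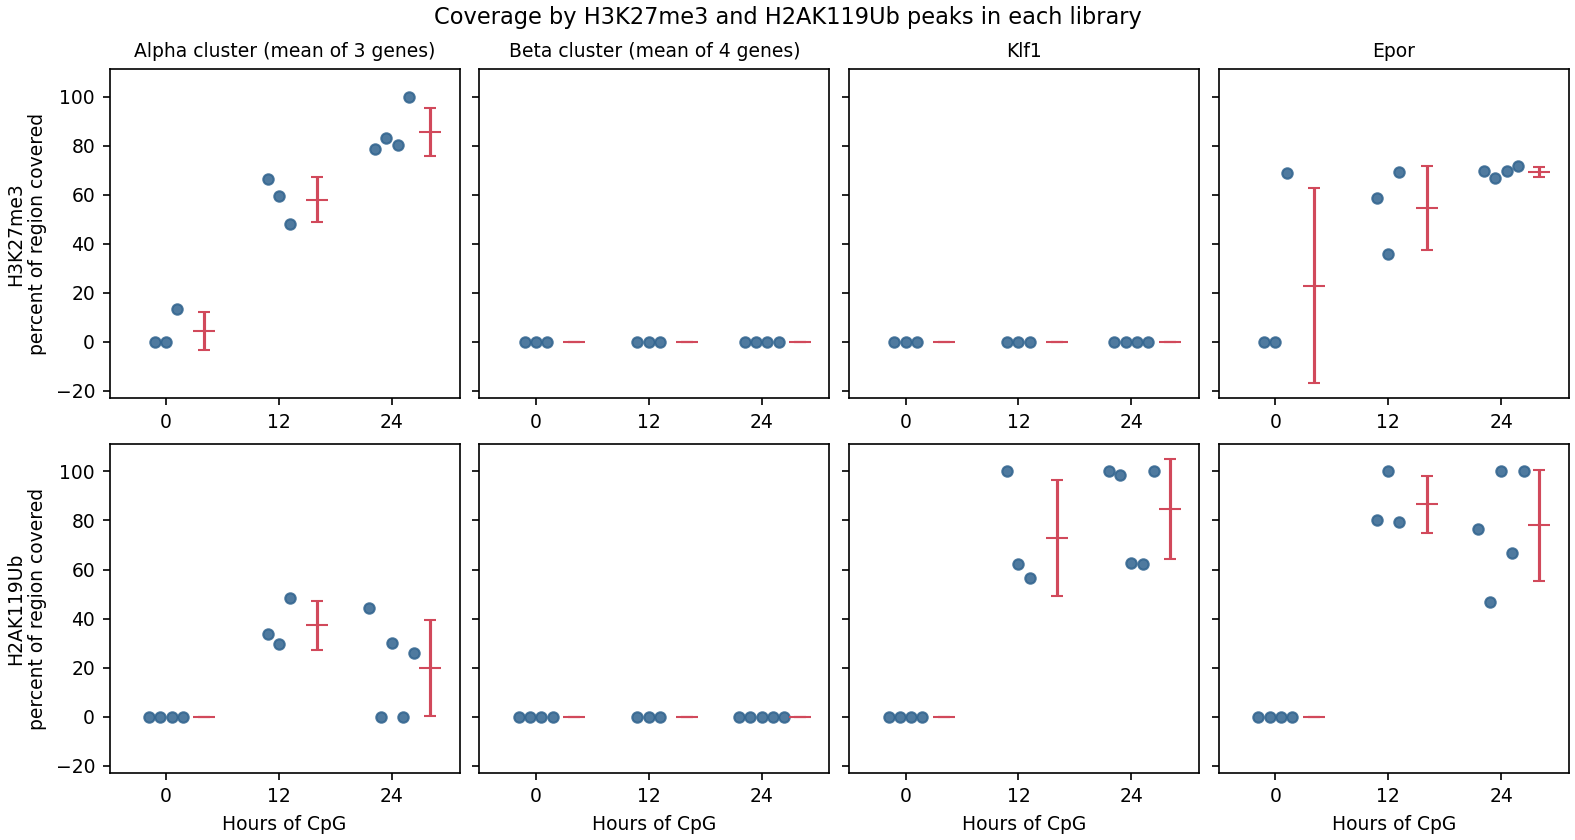
Percent covered by H3K27me3 (top row) and H2AK119Ub (bottom row) peaks for the mean of the alpha genes, the mean of the beta genes, Klf1 and Epor, by hours of CpG; points are libraries, and the red bar is the mean ± SD. H3K27me3 lies at 0 in Klf1 and in the beta cluster, and H2AK119Ub rises from 0 at Klf1 and Epor in every stimulated library.

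Klf1 (chr8:84901982-84905291, plus strand) carried H2AK119Ub without H3K27me3. H2AK119Ub was at 0% in all 4 libraries at 0 h, at 100, 62.3 and 56.5% at 12 h, and at 100, 98.7, 62.7, 62.2 and 100% at 24 h. No unstimulated library overlapped a stimulated one at Klf1, a pattern found for this mark at 5.81% of autosomal genes, Epor included, and the means at 12 and 24 h were 72.9% ± 23.6 (n = 3) and 84.7% ± 20.3 (n = 5). H3K27me3 was at 0% in all 10 libraries. H2AK119Ub in every stimulated library, in none at 0 h and with no H3K27me3 peak anywhere described 477 autosomal genes (1.45%). The stretch shared by all 5 libraries at 24 h was chr8:84900210-84904756, the promoter and most of the gene. H3K27ac was found once, at 38.8% in replicate 2 at 12 h.

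Suz12 and Ring1B were at Klf1 before stimulation as well as after it. Suz12 covered 30.3, 29.3 and 28.5% at 0 h, 0, 0 and 49.7% at 12 h, and 45.2, 27.3 and 23.3% at 24 h. Ring1B covered 16.2, 49.0 and 34.6% at 0 h, 0, 14.0 and 26.2% at 12 h, and 24.4, 44.3 and 21.1% at 24 h. Either subunit was found in 15 of 18 libraries, in the gene body each time, and the 3 libraries without one were all from 12 h. How many genes had such peaks in as many libraries was not counted. The bases shared by all 3 Suz12 libraries at 0 h were chr8:84902657-84904360, inside the gene, and those of Ring1B, chr8:84902879-84903840, lay within them. In the equal-length lists by highest signal Klf1 kept a Suz12 or Ring1B peak in each of the 15 libraries, but H2AK119Ub in 1 of 3 at 12 h and in none of 5 at 24 h. Suz12 coverage of 29.4% ± 0.904 at 0 h and 31.9% ± 11.7 at 24 h (n = 3 each) differed by less than the spread between libraries.

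Epor (chr9:21958897-21963576, minus strand) carried both marks after stimulation. H2AK119Ub was at 0% in all 4 libraries at 0 h, at 80.3, 100 and 79.4% at 12 h, and at 76.6, 46.8, 100, 66.7 and 100% at 24 h, with no overlap between unstimulated and stimulated libraries. H3K27me3 was at 0, 0 and 68.7% at 0 h, at 58.8, 35.7 and 69.1% at 12 h, and at 69.6, 66.6, 69.8 and 71.6% at 24 h. The 68.7% at 0 h was again replicate 3, in which 1 peak of 43613 bp ran over the gene. With that library the 0 h values overlapped the stimulated ones, and without it they were 0%. Both marks in every stimulated library were found at 8.73% of autosomal genes. At 24 h all H3K27me3 libraries covered chr9:21959795-21972381, from the gene body past its start, while H2AK119Ub was shared at chr9:21961728-21963458, to just short of the gene start, and again at chr9:21954318-21957447, beyond the gene's 3′ end. H3K27ac reached 3.87% in replicate 1 at 12 h and 6.35% in replicate 1 at 24 h, and 0% elsewhere.

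Of the Polycomb subunits, Suz12 touched the Epor region in all 9 libraries, at 0.150 to 32.0%, and Ring1B in 6 of 9, at 1.67 to 28.0%. Only 6 of the 18 libraries had a peak in the gene body itself. Here too, the share of genes with as many such peaks was not counted. The Suz12 bases shared by all 3 libraries at 0 h, chr9:21955207-21956708, lie at Gm45914 and Swsap1, on the side away from the Epor promoter. Epor thus differed from Klf1 in where the subunits lay: their peaks were in the gene body in 15 libraries at Klf1 and in 6 at Epor. In the equal-length lists by highest signal Epor kept H3K27me3 in all 4 libraries at 24 h, in 0 of 3 at 12 h and in replicate 3 of the 3 at 0 h, and H2AK119Ub in 3 of 3 at 12 h and 3 of 5 at 24 h. The H3K27me3 peaks over Epor at 24 h were 12860 to 43143 bp long (median 42071), near the 43613 bp of replicate 3 at 0 h in all but the shortest. In replicates 1, 2 and 4 the peak ran over all of Rgl3, which had this mark at 0 h. The rank is thus that of the whole peak and not of Epor alone.

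**Figure D5:**
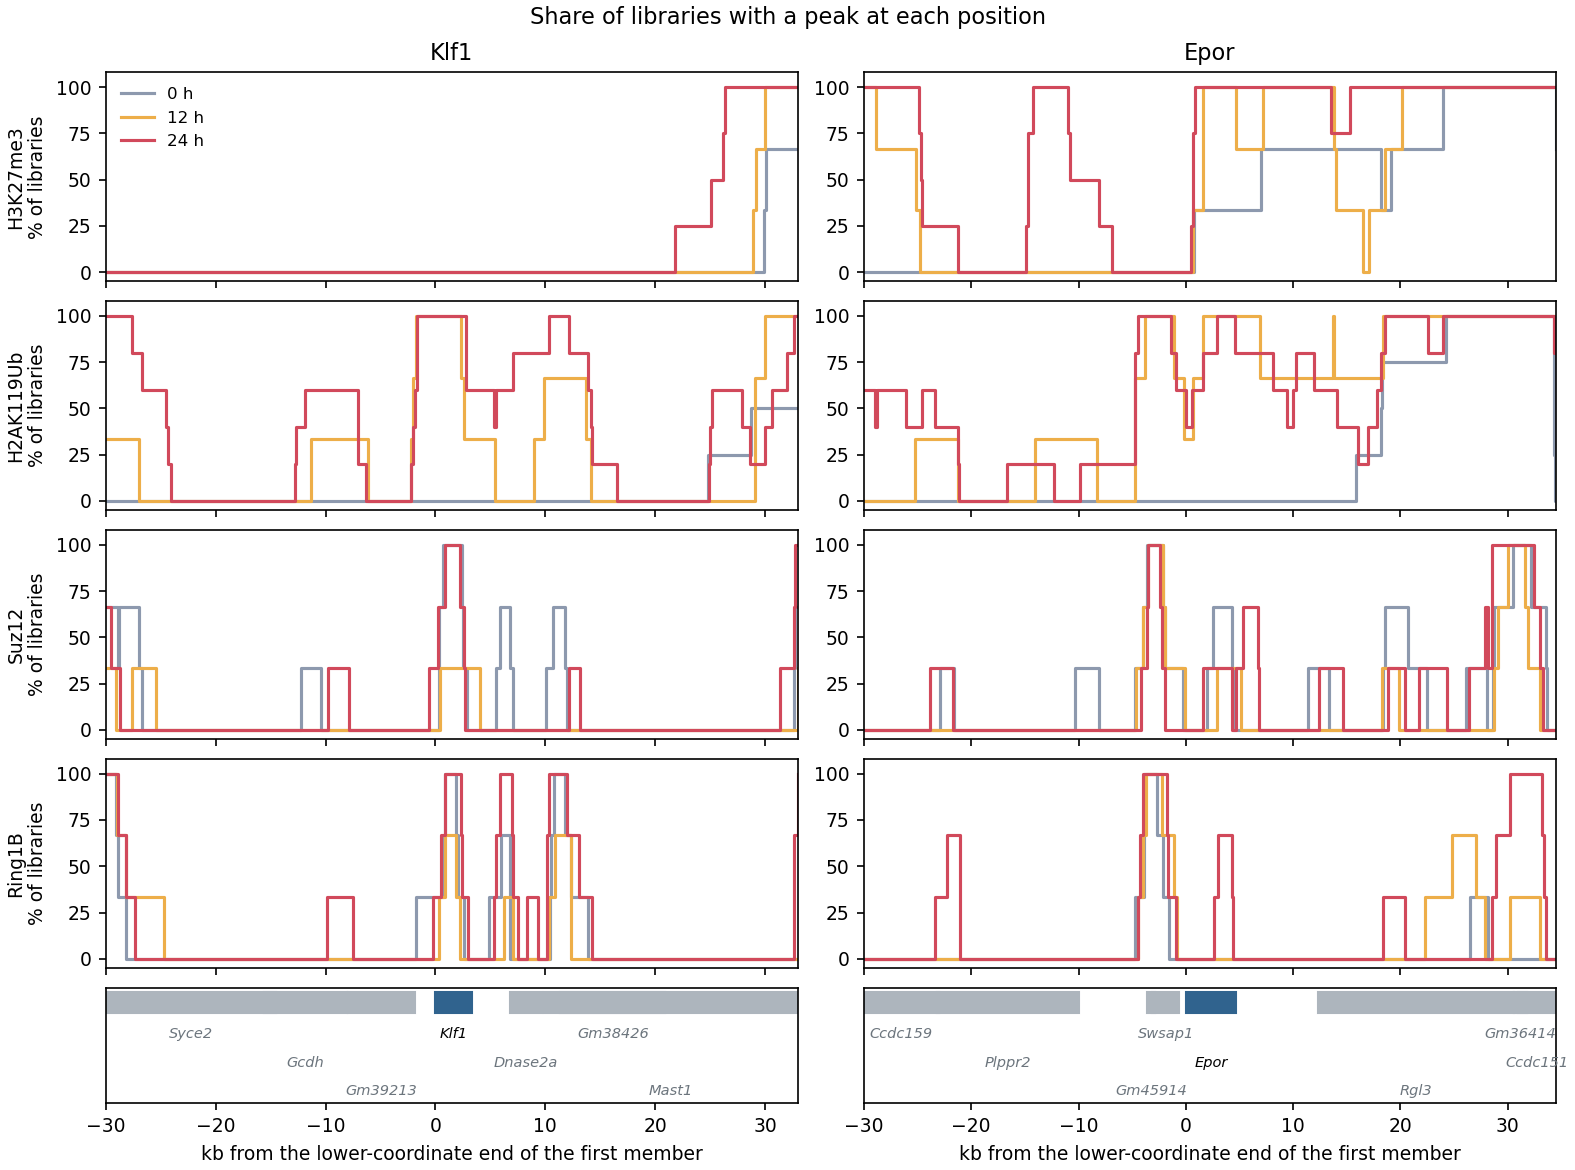
Share of libraries with a peak at each position around Klf1 (left) and Epor (right), in kb from the gene's lower-coordinate end, for H3K27me3, H2AK119Ub, Suz12 and Ring1B. Suz12 and Ring1B stand over the Klf1 gene at 0 and 24 h, whereas at Epor they stand mainly beside the gene, at Gm45914 and Swsap1.

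Calls of the fit across all genes are listed for the members and nothing is read from them, since their coverage chose them. For H3K27me3, 4 of the 9 members passed the filter of a peak in at least 3 libraries, and Hba-x, Hba-a1 and Hba-a2 were called higher at 24 than at 0 h, against 56.5% of the 11912 genes tested. For H2AK119Ub, 5 passed; Klf1 and Epor were called higher at 24 h, against 31% of 13842 genes, and Hba-a1 was among the 33.2% that changed over the 3 times, without a call between those 2. None passed for H3K9me3 or H3K27ac, for which 52.3% and 1.46% of the genes tested changed. For Suz12, 3 passed and 0 were called, as were 0% of all 18046 genes (1581 had an unadjusted p under 0.05). For Ring1B, 2 passed and 0 were called, against 0.085% of 17638. Coverage rose at most tested genes, by a median of 28.9 points for H3K27me3 and 18 for H2AK119Ub between 0 and 24 h. Of the H3K27me3 calls between those times 6732 were higher and 1 lower; with each value divided by its library's autosomal coverage, 1903 were higher (16% of the genes tested) and 447 lower. For H2AK119Ub the counts were 4295 and 41, and 3981 (28.8%) and 1045 after that scaling. In the gene bodies alone only Hba-x kept its H3K27me3 call, and after scaling Hba-a2 lost its call.

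The test was read for genes within 50 kb of the members whose regions share no bases with a member's. The others overlap a member's region and are described only. Regions that share no bases can still lie under 1 peak, so such calls can repeat the members' own coverage. Around the alpha cluster all 3 neighbours with separate regions were called higher in H3K27me3 at 24 than at 0 h by limma's test, where 56.5% of all tested genes were. The non-coding Gm46275, after the cluster, went from 12.3% ± 21.4 to 82.6% ± 26.7 (adjusted p = 0.00440). At 24 h the peaks that ran from the Hba-a2 region reached that of Gm46275 in all 4 libraries. Mpg, a DNA repair glycosylase, went from 8.96% ± 15.5 to 26.3% ± 1.93 (adjusted p = 0.0169). The region of Nprl3, a regulator of nutrient signalling whose introns hold the alpha globin enhancers, went from 0% to 2.59% ± 1.25 (adjusted p = 0.0425), a call lost in 8 of 10 fits that left out 1 library. That coverage was the edge of the Hba-x peaks in the 2 kb flank. No H3K27me3 peak reached the Nprl3 gene body or its introns. The call of Mpg was lost without replicate 1 or 2 at 0 h, and those of Gm46275 and Mpg after scaling by autosomal coverage (adjusted p = 0.0955 and 0.337). The theta globins Hbq1b and Hbq1a, whose regions overlap those of Hba-a1 and Hba-a2, stood at 0% and 33.3% ± 57.7 at 0 h and at 70.9% ± 19.6 and 100% at 24 h. Nprl3 also had H3K27ac, in all 6 stimulated libraries and in none at 0 h, at 12.7% ± 2.32 at 12 h and 8.19% ± 7.02 at 24 h (adjusted p = 0.193). Mpg had H3K27ac in 1 library at each stimulated time.

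H2AK119Ub rose at Mpg, from 7.59% ± 15.2 to 40.8% ± 5.72 (adjusted p = 0.0184), a call lost without replicate 1, 3 or 4 at 0 h and after scaling (adjusted p = 0.254). Hbq1b stood at 0% at 0 h, 62.4% ± 0.498 at 12 h and 24.0% ± 32.9 at 24 h, and Hbq1a at 0, 41.2% ± 35.7 and 20.0% ± 44.7. Nprl3 did not pass (adjusted p = 0.410). The beta cluster's 6 neighbours, the olfactory receptor genes Olfr69, Olfr68, Olfr67, Olfr66 and Olfr64 and the globin gene Hbb-bh2, had no H3K27me3, H2AK119Ub or H3K27ac peak in any library. H3K9me3 was found at Olfr69, Olfr68 and Hbb-bh2, in 1 to 4 of 12 libraries and never at 0 h, and neither of the 2 tested, Olfr69 and Olfr68, passed. The genes on both sides of the beta cluster thus lacked H3K27me3, H2AK119Ub and H3K27ac as the beta globins did, a state found at 28% of all autosomal genes. H3K27me3 lay on both sides of the alpha genes. On the Nprl3 side it lay between that gene and Hba-x, and again at Mpg.

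Around Klf1, 2 of 6 tested neighbours with regions apart from that of Klf1 rose in H2AK119Ub, near the 31% of all tested genes. Syce2, a gene of the meiotic synaptonemal complex, went from 0% to 31.8% ± 10.4 (adjusted p = 0.0123), and the non-coding Gm38426 from 0% to 34.2% ± 11.4 (adjusted p = 0.0216), a call lost without any 1 of the 4 libraries at 0 h. In replicates 1 and 5 at 24 h the H2AK119Ub peak over Klf1 ran on into the Gm38426 region. Dnase2a, a lysosomal nuclease gene just downstream, and the non-coding Gm39213 have regions that overlap that of Klf1 and stood at 0% at 0 h and at 77.3% ± 32.7 and 39.8% ± 19 at 24 h. Farsa, Gcdh, Mast1 and Rtbdn had adjusted p of 0.0942, 0.197, 0.105 and 0.118. H3K27me3 was in all 10 libraries at Mast1 and Rtbdn, a kinase and a retinal gene, which had 30.5% ± 10.6 and 35.8% ± 4.98 at 0 h and 55.8% ± 5.51 and 61.2% ± 15.2 at 24 h (adjusted p = 0.0424 and 0.0445; each lost in 9 of 10 fits without 1 library, all but that without replicate 3 at 0 h). After scaling by autosomal coverage both calls were lost (adjusted p = 0.0605 and 0.0604) and both differences turned negative. The nearest H3K27me3 shared by all 24 h libraries began 26.3 kb from the Klf1 start. The non-coding 1700122E12Rik had H3K27ac in 3 of 9 libraries (adjusted p = 0.363).

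Around Epor, 3 of 7 such neighbours rose in H3K27me3, against 56.5% of all genes. On one side Tmem205, Ccdc159 and Plppr2 rose from 0% to 48.2% ± 11.8, 75.3% ± 15.5 and 37.6% ± 9.22 (adjusted p = 0.00401, 0.00166 and 0.000698). The call of Tmem205 was lost after scaling (adjusted p = 0.0614). On the other side Gm36414 was at 100% in every H3K27me3 and H2AK119Ub library at every time, and Rgl3, a Ras effector, had H3K27me3 at 78.2% ± 20.0 at 0 h and 98.0% ± 3.93 at 24 h (adjusted p = 0.199). Ccdc151 was at 51.8% ± 32.9 and 82.5% ± 4.13 (adjusted p = 0.172), and Prkcsh at 4.89% ± 8.47 and 6.53% ± 4.62 (adjusted p = 0.275). The scaled values of Gm36414, Rgl3 and Ccdc151 fell in H3K27me3 (adjusted p = 0.0433, 0.0290 and 0.0346). That of Gm36414, at 100% throughout, could only follow the covered length, so no fall of the mark is read from it. Rgl3 was near full coverage at 24 h, which limits how far it could rise. H2AK119Ub rose at 2 of 8, against 31% of all genes: Ccdc159 and Tmem205 reached 54.9% ± 25.2 and 54.4% ± 34.9 from 0% (adjusted p = 0.0130 and 0.0209), the call of Tmem205 being lost after scaling (adjusted p = 0.116). Gm45914 and Swsap1, whose regions overlap that of Epor, stood at 82.1% ± 11.1 and 76.9% ± 19.1 at 24 h and 0% at 0 h, and had H3K27ac in 4 of 9 libraries, none of them at 0 h. Rab3d, a small GTPase gene, did not pass (adjusted p = 0.491), nor did Plppr2, Rgl3, Ccdc151, Prkcsh or Gm36414. The scaled H2AK119Ub values of Rgl3 and Gm36414 fell (adjusted p = 0.0317 and 0.00603), at Gm36414 again through the covered length alone. Neither Suz12 nor Ring1B gave a call at any neighbour.

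The other globin genes were mostly among those that gained H3K27me3. Of 6 found in RefSeq, 5 were tested for H3K27me3. Apart from Hbq1b and Hbq1a, described above, all 3 rose by limma's test, against 56.5% of all genes. Values for this list and those that follow are means at 0 and 24 h with the SD over 3 and 4 libraries for H3K27me3 and 4 and 5 for H2AK119Ub. Ngb (neuroglobin) went from 0% to 73.1% ± 8.46 (adjusted p = 0.0114), Cygb (cytoglobin) from 0% to 67.2% ± 8.35 (adjusted p = 0.00199) and Mb (myoglobin) from 0% to 36.7% ± 7.07 (adjusted p = 0.0165). All 3 calls were lost after scaling by autosomal coverage, and that of Mb also without replicate 1 or 2 at 0 h. The median difference of the 5 genes, 67.2 points, stands beside 28.9 for all genes tested. For H2AK119Ub, where 31% of all genes rose, Cygb was the only one tested apart from the theta globins and rose to 57.3% ± 35.5 (adjusted p = 0.0457), a call lost in 9 of 12 fits without 1 library.

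Erythroid transcription factors numbered 15. In H3K27me3, 3 were tested and all 3 rose, against 56.5% of all genes. Nfe2, a partner of the small Maf factors, went from 0% to 53.4% ± 10.6 (adjusted p = 0.000262). Tal1, which nucleates the erythroid activator complex, went from 41.3% ± 22.2 to 83.5% ± 11.3 (adjusted p = 0.0292). Sox6 went from 0.917% ± 1.16 to 22.7% ± 7.75 (adjusted p = 0.00505). The call of Tal1 was lost without replicate 3 or 4 at 24 h and after scaling (adjusted p = 0.223), where its difference turned negative. In H2AK119Ub 7 of 13 rose, against 31% of all genes. They included Lmo2, a bridging protein of the Tal1 complex, from 0% to 61.9% ± 29.3 (adjusted p = 0.0104), Gfi1b, a repressor, from 0% to 51.6% ± 12.9 (adjusted p = 0.00501), Lyl1 from 0% to 41.2% ± 29.1 (adjusted p = 0.0315) and Cbfa2t3, a corepressor, from 2.42% ± 1.72 to 40.9% ± 15.5 (adjusted p = 0.0117). That of Lyl1 was lost without any 1 of the 4 libraries at 0 h or replicate 1 or 3 at 24 h, as were 3 calls not named without any 1 of those at 0 h. These genes also had H3K27ac peaks, in 9 of 9 libraries at Lmo2 and Cbfa2t3, 8 at Lyl1 and 5 at Gfi1b, so the gain is not read as silencing.

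Of 19 red cell membrane genes, 15 were tested for H3K27me3 and 9 rose, a share near the 56.5% of all genes. Slc4a1, the anion exchanger band 3, went from 9.75% ± 16.9 to 95.2% ± 5.62 (adjusted p = 0.000588), Trim10 from 0% to 84.6% ± 17.2 (adjusted p = 0.00166) and Add2 (beta adducin) from 12.3% ± 7.17 to 58.0% ± 17.9 (adjusted p = 0.00939). In H2AK119Ub 6 of 12 rose, against 31% of all genes, among them Ermap at 58.0% ± 28.1 (adjusted p = 0.0226), Dmtn (dematin) at 65.9% ± 24.6 from 12.3% ± 14.2 (adjusted p = 0.0117), Rhd at 43.2% ± 16.5 (adjusted p = 0.0106) and Slc4a1 at 33.6% ± 14.2 (adjusted p = 0.0329). The H2AK119Ub calls of Ermap and Slc4a1 were lost without any 1 of the 4 libraries at 0 h. H3K27ac peaks lay at Ermap in 6 of 9 libraries, at Dmtn in 2, and at Rhd and Slc4a1 in 0. After scaling, 3 genes of the list rose in H3K27me3, where Slc4a1 and Add2 did not (adjusted p = 0.183 and 0.925, the latter with a negative difference), and 3 in H2AK119Ub, where Dmtn and Slc4a1 did not (adjusted p = 0.306 and 0.106).

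Among 17 genes of haem and iron handling, 2 of 5 rose in H3K27me3 and 3 of 13 in H2AK119Ub, both below the 56.5% and 31% of all genes. Alas2, the X-linked first enzyme of haem synthesis in red cells, rose in both, to 91.7% ± 12.3 from 7.55% ± 13.1 in H3K27me3 (adjusted p = 0.000404) and to 78.7% ± 25.8 from 0% in H2AK119Ub (adjusted p = 0.00180). Alas2 is X-linked in hybrids with skewed X inactivation, and its peaks are those of the X from the castaneus father. The part of X inactivation in its gain was not tested. It is included in the counts above, as X-linked genes are in the shares of all genes. Its H3K27me3 call was lost after scaling by autosomal coverage (adjusted p = 0.730). Slc25a37, a mitochondrial iron importer, rose to 4.53% ± 0.421 in H3K27me3 (adjusted p = 0.000348). The haem synthesis enzymes Urod and Cpox rose in H2AK119Ub to 45.7% ± 11.5 and 23.0% ± 13 (adjusted p = 0.0222 and 0.0387). Both were lost without any 1 of the 4 libraries at 0 h, and Cpox in 3 further fits.

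Of 8 genes of erythropoietin signalling, 3 of 4 rose in H3K27me3, against 56.5% of all genes: Cish, a feedback inhibitor, from 0% to 50.8% ± 1.66 (adjusted p = 9.92e-05), Kit, the stem cell factor receptor, from 2.87% ± 4.96 to 11.6% ± 1.39 (adjusted p = 0.0401), and its ligand Kitl from 1.18% ± 2.04 to 7.70% ± 0.798 (adjusted p = 0.0149). Those of Kit and Kitl were lost after scaling and without replicate 1 or 2 at 0 h, and that of Kit in 5 further fits. In H2AK119Ub 4 of 6 rose, against 31% of all genes: Cish to 92.8% ± 11.9 from 45.3% ± 33.1 (adjusted p = 0.0489), the signal transducer Stat5b to 19.9% ± 8.53 (adjusted p = 0.0194), the adaptor Sh2b3 to 18.2% ± 6.60 (adjusted p = 0.0155) and the kinase Jak2 to 8.54% ± 4.92 (adjusted p = 0.0226). The Cish call was lost in 9 of 12 fits without 1 library and after scaling, where its difference turned negative (adjusted p = 0.659). That of Stat5b was lost without any 1 of the 4 libraries at 0 h and that of Jak2 without replicate 1, 3 or 4 there. H3K27ac peaks lay at Stat5b and Sh2b3 in 8 of 9 libraries, at Jak2 in 7 and at Cish in 1. No gene of these 5 lists fell in H3K27me3 or H2AK119Ub before scaling. After it, 1 fell in H3K27me3 (Dmtn, adjusted p = 0.0307) and 4 in H2AK119Ub (Tal1, Sox6, Icam4 and Slc11a2, adjusted p = 0.0121, 0.0383, 0.0107 and 0.0362), genes named here after their values were seen. For H3K27ac 1 gene of these lists rose, Icam4, from 0% to 53.0% ± 3.36 (n = 3; adjusted p = 0.0290), a call lost in 5 of 9 fits without 1 library and after scaling (adjusted p = 0.0939).

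The genes whose coverage over the 61 libraries was most like the alpha mean were Mal, Cacng7, LOC115487722, Neo1 and Ap3b2, with mean absolute differences of 4.13 to 4.51 points. They lay on chromosomes 2, 7, 9 and 11 and had 80.5 to 88.8% H3K27me3 at 24 h, 33.9 to 61.6% at 12 h and 0 to 20.3% at 0 h. Those most like the beta mean were Gm39401, Gm34938, Slc22a14, Gm52142 and Fcsk, at 0.556 to 0.576 points, with 0% H3K27me3 at every time.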

How the data were processed

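CUT&RUN peak lists of splenic CD23+ B cells were used for 61 libraries; 3 IgG samples were not analysed here. Per the submitters' processing notes, Trimmomatic 0.32, Bowtie2 2.3.4.1, Picard and deepTools 3.5.1 were used, and the build, per the labels, was mm10. The deposited lists were made by the authors with SEACR, per the file names, in a relaxed normalised mode for the histone marks and as a stringent top share of 0.01 for Suz12 and Ring1B; peaks were called per sample. The signal values, as deposited by the authors, are each peak's total and highest coverage in that list. Not given in the sources used here are the allele assignment, the SEACR version and the depth.

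Covered percent was computed per gene region and library (Python 3.11.15, pandas 2.3.3, numpy 2.4.6) from RefSeq genes (GRCm38.p6). Genes with a peak in at least 3 libraries of an antibody were tested over the 3 times with limma 3.58.1 (R 4.3.3; moderated F-test, trend and robust, Benjamini-Hochberg adjusted over all genes tested, threshold 0.05). Higher or lower also needed a contrast p under 0.05 between 24 and 0 h. The self-test ran on simulated data. Every adjusted p is from limma.

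The members and gene lists were chosen with earlier results of these data known. Named genes were the members, every neighbour within 50 kb, at most 4 called genes per list and mark by absolute difference, and the 5 genes nearest each cluster's mean pattern. One gene that this rule names is not reported here. Alternatives were the gene body alone, stricter lists, lists of equal length, scaling by autosomal coverage, another filter, a replicate block and leaving out each library. The replicates are biological per the labels, which do not tie them to animals; p-values measure the spread between these samples.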

Additional observations from a re-analysis of the deposited data

Results flagged for a closer look

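Among 19 groups of 4 or 5 libraries with any spread, over the members, the cluster means and the covered lengths, 3 held 1 value far from all others by Dixon's criterion, which chance meets in about 1 of 20 groups of continuous values. Each was a single value among zeros, which meets the criterion by construction, so that rate does not apply and the values are a description. Hba-a2 had 41.0% H2AK119Ub coverage in replicate 5 at 24 h and 0% in the other 4 libraries. Hbb-bh1 had 74.2% H3K9me3 coverage in replicate 1 at 24 h, and Hbb-y 19.5% in replicate 4, each against 0% in the other 3 libraries of that time. Both H3K9me3 values were the sole ones of that mark on any member.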

How the results depend on the processing

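The difference between the alpha and beta clusters at 24 h was 85.5 points for H3K27me3 and 80.7 to 87.9 without each library; in gene bodies alone it was 67.1, in lists of equal length 0, and in lists of equal length by total signal, added after seeing the data, 41.7. For H2AK119Ub it was 13.9 to 25 without each library 2.44 in stricter lists and 0 in both kinds of equal-length list. Genes changed over time with H3K27me3 numbered 6773, with 293 in lists of equal length, 2363 after scaling by autosomal coverage and 4167 to 7733 without each library (4251 and 4167 without replicates 1 and 2 at 0 h). For H2AK119Ub they numbered 4595, with 689 in lists of equal length and 2458 to 6682 without each library (2476, 2458 and 2459 without replicates 1, 3 and 4 at 0 h). H3K9me3 gave 1219, with 530 in stricter lists, 39 in lists of equal length, 776 after scaling and 890 to 1227 without each library. H3K27ac gave 136, with 85 in stricter lists, 0 after scaling and 0 to 725 without each library. Suz12 gave 0, with 7 in gene bodies, 104 in stricter lists and 1 after scaling. Ring1B gave 15, with 51 in gene bodies, 187 in stricter lists, 126 in lists of equal length, 72 after scaling, 1 with a peak in at least 1 library and 0 to 2 without each library. The causes were not tested.

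Same-numbered libraries correlated at -0.214 to 0.0819 over the 6 antibodies, so the numbers were not taken to pair samples. With the replicate block the H3K27me3 count was 4155, the H2AK119Ub count 2192 and the H3K9me3 count 1148, and no gene was called for H3K27ac (0), Suz12 (0) or Ring1B (0). In that fit Hba-a2 lost its H3K27me3 call and Hba-a1 its H2AK119Ub call. Of 66 values under other settings, 41 moved by less than 1 SD or, for counts, by less than 1.5 times. Depth is unknown, so the absence of a peak sets no limit on the signal.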
